A study of Mus musculus with 43 samples.

Results

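Natural killer (NK) cell genes were followed in glia purified from mice with and without Rag2, one of the recombination proteins that assemble the antigen receptors of T and B cells. The 10 genes, Ncr1, Klrb1c, Klrd1, Klre1, Gzma, Gzmb, Prf1, Nkg7, Il2rb and Eomes, were taken by name from the 55416 genes counted in each library. The rule itself uses no measured value, but the genes were chosen with earlier results of these data known. NK cells are innate lymphocytes that recognise targets with germline-encoded receptors and kill them by releasing perforin and granzymes from cytotoxic granules. They need interleukin-15, received through the receptor chain encoded by Il2rb, and the T-box transcription factors Eomes and T-bet, but they do not rearrange receptor genes and develop in the absence of Rag2. In the healthy brain they are rare and are found chiefly in the vessels, meninges and choroid plexus.

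Microglia, oligodendrocyte precursor cells (OPCs), oligodendrocytes and astrocytes were immunopanned in series from the cortical grey matter of 12 mice in 6 littermate pairs, 1 control and 1 Rag2-/- mouse per pair. The 43 libraries were 12 of microglia, 12 of astrocytes, 11 of OPCs (none from the Rag2-/- mouse of pair 5) and 8 of oligodendrocytes (pairs 1, 3, 5 and 6). All mice were 3 months old, descended from the strain B6.Cg-Rag2tm1.1Cgn/J crossed with C57BL/6J, and were perfused with phosphate buffered saline before dissection. Controls of pairs 1, 2, 3 and 5 were Rag2+/- and those of pairs 4 and 6 were Rag2+/+. Both mice of pairs 2 and 5 and the Rag2-/- mouse of pair 6 were female, and the other 7 mice were male. The Rag2 deletion is germline, so every cell of a Rag2-/- mouse carried it, in the brain and outside it.

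Microglia were captured first, on plates coated with an antibody against CD45, a surface protein of all leukocytes, so the plates could also hold NK cells, T cells, B cells, neutrophils and peripheral macrophages that remained after perfusion. The counts per library were 6499417 to 13709286 in microglia and 6499417 to 23118497 over all 43 libraries, and 1 count in a microglia library was worth 0.0729 to 0.154 CPM (counts scaled to a library of 1000000 gene counts). The 9 measured microglia genes summed to 8710 to 10800 CPM in microglia libraries, against 173 to 851 in oligodendrocytes, 243 to 1070 in OPCs and 124 to 313 in astrocytes. Genes listed for other leukocytes had counts in microglia libraries, where the neutrophil list summed to 320 to 496 CPM and the list of monocyte and border macrophage genes to 433 to 973 CPM. Most of the neutrophil sum was Csf3r, at a mean of 349 CPM in controls and 376 CPM in Rag2-/- microglia. S100a9, the next most abundant of that list, had 10.3 and 16.5 CPM. Rag2 itself had 0 or 1 count in every microglia library and could not check the genotype labels. Iftap, a neighbouring gene that overlaps Rag2, had 14 to 131 counts in control microglia and 0 or 1 count in Rag2-/- microglia.

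For 8 of the 10 genes RefSeq gave a promoter window, and those of Gzmb, Nkg7 and Ncr1 are shown because they hold the letters TCACAC, a core of the T-box element bound by Eomes and T-bet, or their reverse complement GTGTGA. Each window is the 250 bases before the annotated start, 5′ to 3′ along the gene, on the GRCm38.p6 build of the RefSeq table. The match is in capitals.
Gzmb promoter, chr14:56262335-56262584, - strand: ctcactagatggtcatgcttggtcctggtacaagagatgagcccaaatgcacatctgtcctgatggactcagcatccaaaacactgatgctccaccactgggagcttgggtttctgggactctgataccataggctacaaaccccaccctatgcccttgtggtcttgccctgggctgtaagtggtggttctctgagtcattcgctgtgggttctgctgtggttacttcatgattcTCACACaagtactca
Nkg7 promoter, chr7:43436888-43437137, + strand: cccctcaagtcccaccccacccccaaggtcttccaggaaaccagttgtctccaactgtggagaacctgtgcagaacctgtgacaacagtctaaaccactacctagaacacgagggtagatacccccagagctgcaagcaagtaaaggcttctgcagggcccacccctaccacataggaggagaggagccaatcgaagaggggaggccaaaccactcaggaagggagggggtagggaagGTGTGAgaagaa
Ncr1 promoter, chr7:4337465-4337714, + strand: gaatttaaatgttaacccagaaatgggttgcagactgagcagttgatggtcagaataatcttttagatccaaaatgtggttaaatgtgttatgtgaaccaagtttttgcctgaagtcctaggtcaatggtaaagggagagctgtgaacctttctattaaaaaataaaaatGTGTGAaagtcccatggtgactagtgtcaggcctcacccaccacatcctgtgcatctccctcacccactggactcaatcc
The first base of the match lies 15 bases before the start in Gzmb, 12 in Nkg7 and 80 in Ncr1. Together with Klre1, whose second start has a match 42 bases upstream, 4 of the 8 genes with a window held the 6 letters on either strand. Counted by window, which lets a gene with a pair of overlapping windows such as Ncr1 enter more than once, 5 of 10 windows of these genes held them, and 12.3% of all 32851 windows in the table did. Klrb1c, Gzma, Prf1 and Eomes had no match in their windows. A match is a run of letters and was not tested for binding.

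In microglia libraries, which came from the CD45 plates, the NK cell genes were present at low counts in both genotypes. Summed over the 10 genes, control microglia had 62 to 240 counts per library and Rag2-/- microglia 94 to 335. Scaled to library size, the sum was 15.2 ± 8.71 CPM in controls and 16.7 ± 6.62 CPM in Rag2-/- mice (SD, n = 6 each). The ranges were 7.07 to 29.1 and 8.60 to 27.3 CPM, so the libraries of the 2 genotypes overlapped over almost their whole range. The direction of the difference in means, 1.43 CPM, rested on single libraries: it was -0.71 CPM without the Rag2-/- mouse of pair 5, -0.20 CPM without the control of pair 3 and 4.19 CPM without the control of pair 2, and -0.44 CPM with Rag2+/- controls alone. These differences take no account of sex. Pair 6 joined a male control with a female Rag2-/- mouse, and both Rag2+/+ controls were male. Female libraries had 22.8 and 29.1 CPM in controls and 14.5 to 27.3 CPM in Rag2-/- mice. Male libraries had 7.07 to 13.1 CPM in controls and 8.60 to 17.9 CPM in Rag2-/- mice. On average 7.67 of the 10 genes had at least 1 count in a control library and 8.67 in a Rag2-/- library. In bulk libraries, fewer NK cells and less RNA per cell cannot be told apart.

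Il2rb, the β chain shared by the receptors for interleukin-2 and interleukin-15, made up 32.3% to 80.3% of the summed counts, so the sum mostly followed this gene. Without it, the other 9 genes summed to 7.09 ± 5.21 CPM in controls and 7.36 ± 3.22 CPM in Rag2-/- microglia (SD, n = 6 each). Per kilobase of exon, the order of mean levels over the 12 microglia libraries was Il2rb (2.01 ± 0.891 CPM per kb), Gzmb (1.34 ± 1.04), Klrd1 (0.920 ± 0.261), Nkg7 (0.829 ± 0.607), Gzma (0.826 ± 0.919), Ncr1 (0.318 ± 0.480), Prf1 (0.204 ± 0.149), Klrb1c (0.107 ± 0.124), Klre1 (0.0895 ± 0.119) and Eomes (0.0797 ± 0.169; SD, n = 12). Every neighbouring pair in this order differed by less than the SD of the higher gene. Klrd1 and Il2rb were the evenest across libraries, with an SD below their mean by more than a factor of 2, while the SD of Gzma, Ncr1, Klrb1c, Klre1 and Eomes exceeded the mean.

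**Figure D1:**
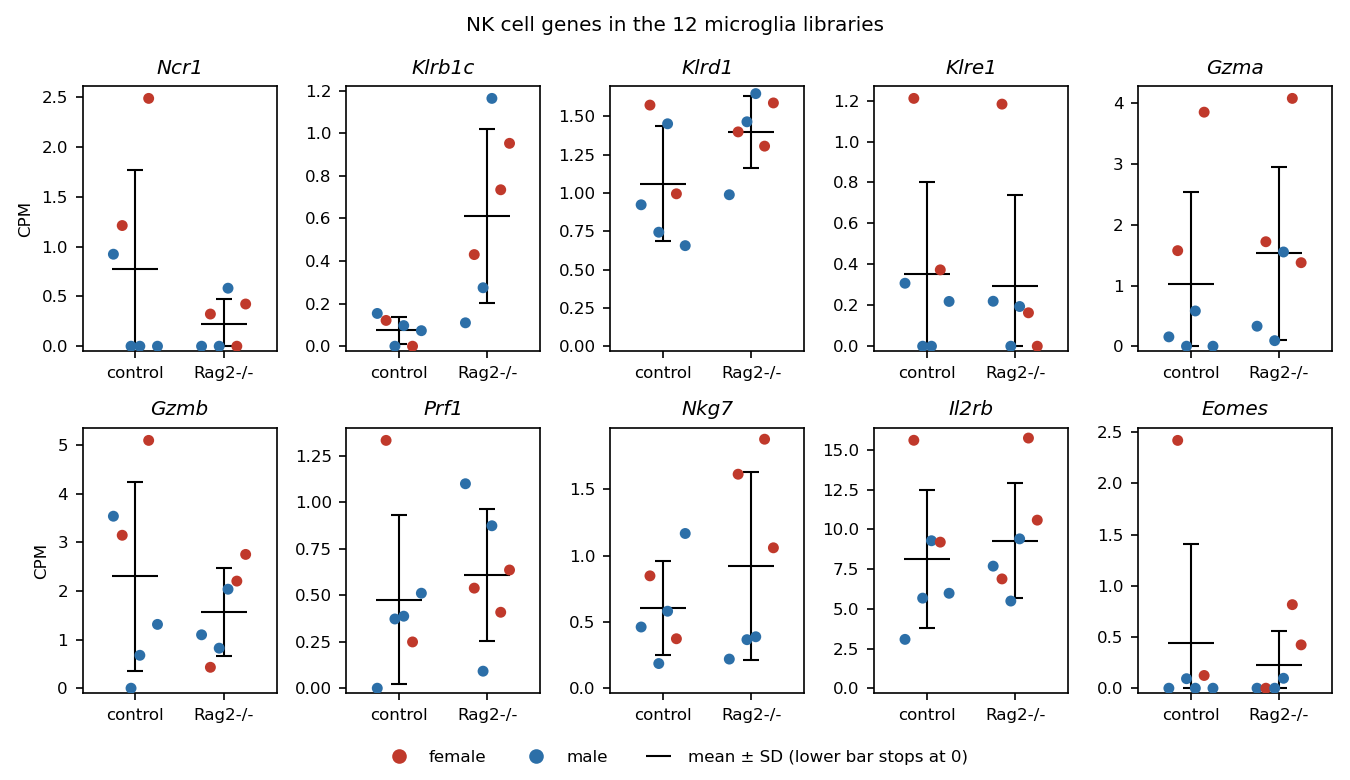
Level of each NK cell gene in the 12 microglia libraries, in CPM on a linear axis, by genotype; each point is 1 library, coloured by sex, and bars give the mean ± SD (n = 6 per genotype). Control and Rag2-/- points overlap for all 10 genes, and Klrb1c comes nearest to separating, at 0 to 0.154 CPM in controls and 0.110 to 1.16 CPM in Rag2-/- mice.

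None of the 10 genes differed between genotypes in microglia past an adjusted p of 0.05 (edgeR quasi-likelihood test with sex as a term, Benjamini-Hochberg adjustment over all genes). Over all genes the same test called 0.00667% of the 15003 genes past the filter on low counts and 0.0273% of the 32912 genes with at least 1 count. Gzma, Gzmb, Il2rb and Klrd1 passed the filter, and the other 6 took their values from the fit without it. At an unadjusted p under 0.05 there was 1 of 10, against 2.91% of all genes past the filter and 4.56% without the filter, and the DESeq2 Wald test, which called 0.00916% of all genes, also called 0 of the 10. Of the fold changes, 6 were above 0 and 4 below, with a median log2 fold change of 0.11 (Rag2-/- over control), beside a median of 0.01 over all genes with a count.

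Among the receptors, Klrd1 encodes CD94, the partner of the NKG2 proteins in receptors that read the class I molecule Qa-1. Its counts in control microglia of pairs 1 to 6 were 6, 13, 8, 15, 8 and 9, and in Rag2-/- microglia 9, 13, 16, 17, 16 and 15. It was detected in all 12 libraries, and the Rag2-/- libraries sat in the upper part of a shared range, at 1.40 ± 0.236 CPM against 1.06 ± 0.375 CPM (SD, n = 6 each). In edgeR the log2 fold change was 0.40 (95% interval -0.48 to 1.29, adjusted p = 0.999), and the level was higher in the Rag2-/- mouse in 5 of 6 pairs.

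Klrb1c encodes NKR-P1C, the activating receptor known in C57BL/6 mice as NK1.1. Its counts were 1, 1, 0, 1, 0 and 1 in controls and 1, 4, 3, 12, 9 and 9 in Rag2-/- microglia, a total of 4 against 38. No control library held more than 1 count and every Rag2-/- library held at least 1, with an overlap at 1 count. Its log2 fold change was 2.82 (95% interval 0.61 to 5.04), with an unadjusted p of 0.0125 and an adjusted p of 0.925 in edgeR, so this gene did not pass the test across all genes. An exact two-sided permutation test of its CPM over the 924 arrangements of the 12 libraries gave p = 0.00649, unadjusted and 1 of 10 such tests, and the other 9 gave 0.0931 to 0.846. With the littermate pair as a block and sex as a term, the unadjusted edgeR p was 0.0580. Of the 50-base windows of its transcript, 3.4% occur elsewhere in the genome, and 12.9% of its exonic bases overlap the same-strand gene model Gm44511, so part of its counts is uncertain.

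Ncr1 encodes NKp46, the activating receptor most closely tied to NK cells and group 1 innate lymphoid cells. Counts were 6, 10, 0, 0, 20 and 0 in controls and 0, 3, 0, 6, 0 and 4 in Rag2-/- microglia. Each genotype had 3 libraries at 0, and both Rag2+/+ controls, which were male, were among them. By sex, 4 of 5 female and 2 of 7 male libraries had counts. Rag2-/- over control, the log2 fold change was -1.45 (95% interval -3.37 to 0.46, edgeR adjusted p = 0.925), so the interval holds no change as well as a several-fold fall.

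Klre1 encodes a lectin-like receptor that pairs with the KLRI proteins. It had 2, 10, 0, 0, 3 and 3 counts in controls and 2, 11, 0, 2, 2 and 0 in Rag2-/- microglia. In both genotypes the mouse of pair 2 held most of the counts, and the remaining libraries held 0 to 3. Its fitted log2 fold change was -0.32 (95% interval -2.47 to 1.83, edgeR adjusted p = 0.997).

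The granule genes encode the killing machinery, the serine proteases granzyme A and granzyme B, the pore-forming protein perforin (Prf1) and the granule membrane protein NKG7. Gzma counts were 1, 13, 0, 6, 31 and 0 in controls and 3, 16, 1, 16, 50 and 13 in Rag2-/- microglia. Its level was higher in the Rag2-/- mouse in 6 of 6 pairs, of which pair 6 joined a male control with a female Rag2-/- mouse. The share of all genes higher in every pair is not given here. Levels were 1.03 ± 1.51 CPM in controls and 1.53 ± 1.42 CPM in Rag2-/- mice (SD, n = 6 each). This spread between mice was larger than the difference between genotypes, but it does not measure differences within pairs. The log2 fold change was 0.75 (95% interval -0.69 to 2.19, edgeR adjusted p = 0.999). The highest library of each genotype was that of pair 5, whose mice were both female.

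Gzmb, the most abundant granule gene per length, had 23, 26, 0, 7, 41 and 18 counts in controls and 10, 4, 9, 21, 27 and 26 in Rag2-/- microglia. The control of pair 3 had none while the control of pair 5 had the highest count, so controls spanned the whole range of the Rag2-/- libraries. Between genotypes its log2 fold change was -0.58 (95% interval -1.91 to 0.75, edgeR adjusted p = 0.999), and 3 pairs were higher and 3 lower in the Rag2-/- mouse.

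Prf1 had 0, 11, 4, 4, 2 and 7 counts in controls and 10, 5, 1, 9, 5 and 6 in Rag2-/- microglia. Nkg7 had 3, 7, 2, 6, 3 and 16 counts in controls and 2, 15, 4, 4, 23 and 10 in Rag2-/- microglia. Both genes overlapped between genotypes, Nkg7 being detected in every library and Prf1 in all but the control of pair 1. Their log2 fold changes were 0.40 for Prf1 (95% interval -1.24 to 2.03) and 0.08 for Nkg7 (95% interval -1.66 to 1.82), with edgeR adjusted p of 0.979 and 1.00.

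Il2rb had 20, 129, 61, 96, 74 and 82 counts in control microglia of pairs 1 to 6 and 70, 64, 60, 97, 193 and 100 in Rag2-/- microglia, or 8.14 ± 4.35 and 9.30 ± 3.64 CPM (SD, n = 6 each). It was the member measured most precisely. The log2 fold change of 0.14 had a 95% interval of -0.38 to 0.67 (edgeR adjusted p = 0.999), which leaves out a 2-fold change in either direction. An unstranded count of this gene could include reads of the opposite-strand model Gm62993, which covers 8.6% of its exonic bases.

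Eomes, the T-box factor of NK cell maturation, had 0, 20, 1, 0, 1 and 0 counts in controls and 0, 0, 0, 1, 10 and 4 in Rag2-/- microglia. In controls 20 of the 22 counts came from the female of pair 2, and 6 of the 12 libraries had none. The log2 fold change was -0.91 (95% interval -3.28 to 1.45, edgeR adjusted p = 0.927). Opposite-strand gene models cover 15% of its exonic bases.

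**Figure D2:**
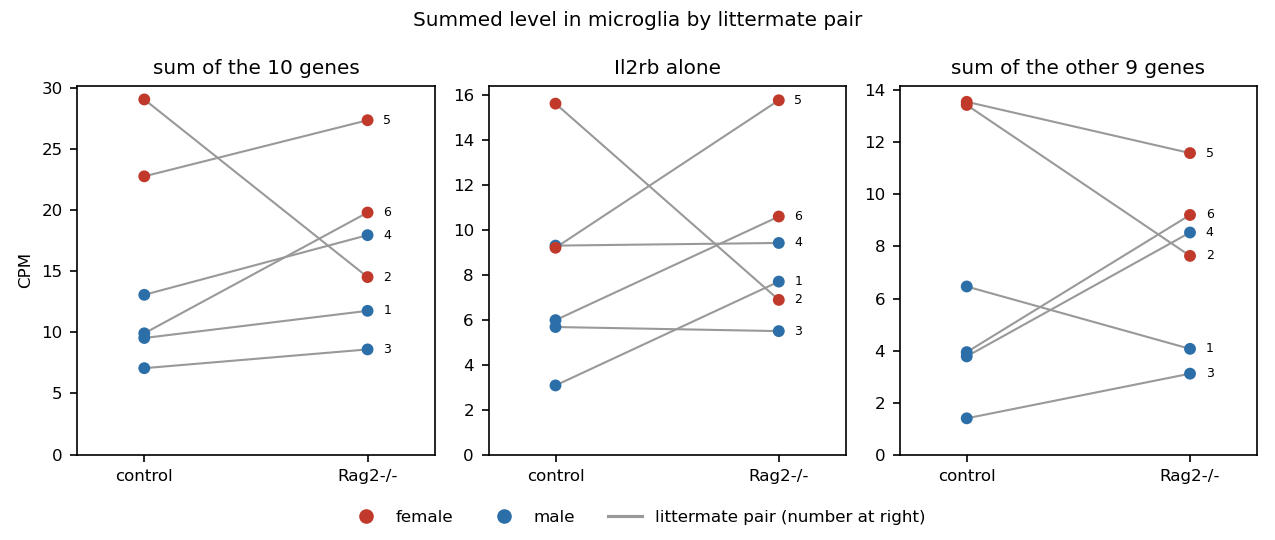
Summed CPM of the 10 NK cell genes, CPM of Il2rb alone and summed CPM of the other 9 genes in microglia; points are single libraries coloured by sex, and lines join the control and the Rag2-/- mouse of a littermate pair. The 10-gene sum was higher in the Rag2-/- mouse in 5 of 6 pairs and the sum without Il2rb in 3 of 6. Pair 6 joins a male control with a female Rag2-/- mouse.

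T and B cell genes, which mark the cells that need Rag2, were measured in the same microglia libraries. Cd3e, a subunit of the T cell receptor complex, had 9, 30, 8, 22, 17 and 39 counts in controls and 0 in all 6 Rag2-/- libraries, a level at least 44.4-fold lower (floor of 3 counts over the Rag2-/- libraries, edgeR adjusted p = 1.25e-08). Igkc, the constant region of the kappa light chain of antibodies, had 53, 151, 5, 41, 41 and 0 counts in controls and 0 or 1 in Rag2-/- libraries (log2 fold change -7.36, SE 0.68, edgeR adjusted p = 7.51e-23). The opposite-strand model Gm68839 covers 97.9% of the exonic bases of Igkc, and counts made without strand could not tell the 2 apart. These were the genes of both lists past the adjusted threshold, 1 of 18 T cell genes and 1 of 14 B cell genes, and 0.0213% of all genes with a count were called lower. No Rag2-/- library reached the lowest control for Cd3e, a separation seen in 0.0456% of genes with a count. It held for 1 of 18 T cell genes, 0 of 14 B cell genes and 0 of the 10 NK cell genes. Overlap between genotypes was therefore shared by nearly all genes of the 3 lists, Igkc included.

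At an unadjusted p under 0.05, 9 of 18 T cell genes and 5 of 14 B cell genes were lower in Rag2-/- microglia and none was higher. Over all genes, 2.91% of those past the filter and 4.56% without the filter passed, in either direction. The T and B cell lists had median log2 fold changes of -1.68 and -1.31, beside 0.11 for the 10 NK cell genes. Genes at 0 in all Rag2-/- libraries were set at their bound for these medians. The 5 most abundant genes of the T cell list did not pass the test. Cd4, with 20 to 214 counts in controls and 58 to 190 in Rag2-/- microglia, had a log2 fold change of 0.05 (edgeR unadjusted p = 0.890). The surface receptor genes Cd5 and Cd28 had log2 fold changes of 0.17 and -0.62 (unadjusted p = 0.519 and 0.0846), and the signalling genes Lck and Cd247 had 0.20 and -0.61 (unadjusted p = 0.624 and 0.252). Of the B cell list, Ighm, the heavy chain constant region of IgM, had 1828 to 5480 counts in controls and 2715 to 4471 in Rag2-/- microglia (log2 fold change -0.03, unadjusted p = 0.756). Cd247 and Lck are also transcribed in NK cells, and 51.1% of the exonic bases of Cd247 lie opposite Pou2f1. The lists were chosen with results of these libraries known, and the difference between lists was not tested.

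**Figure D3:**
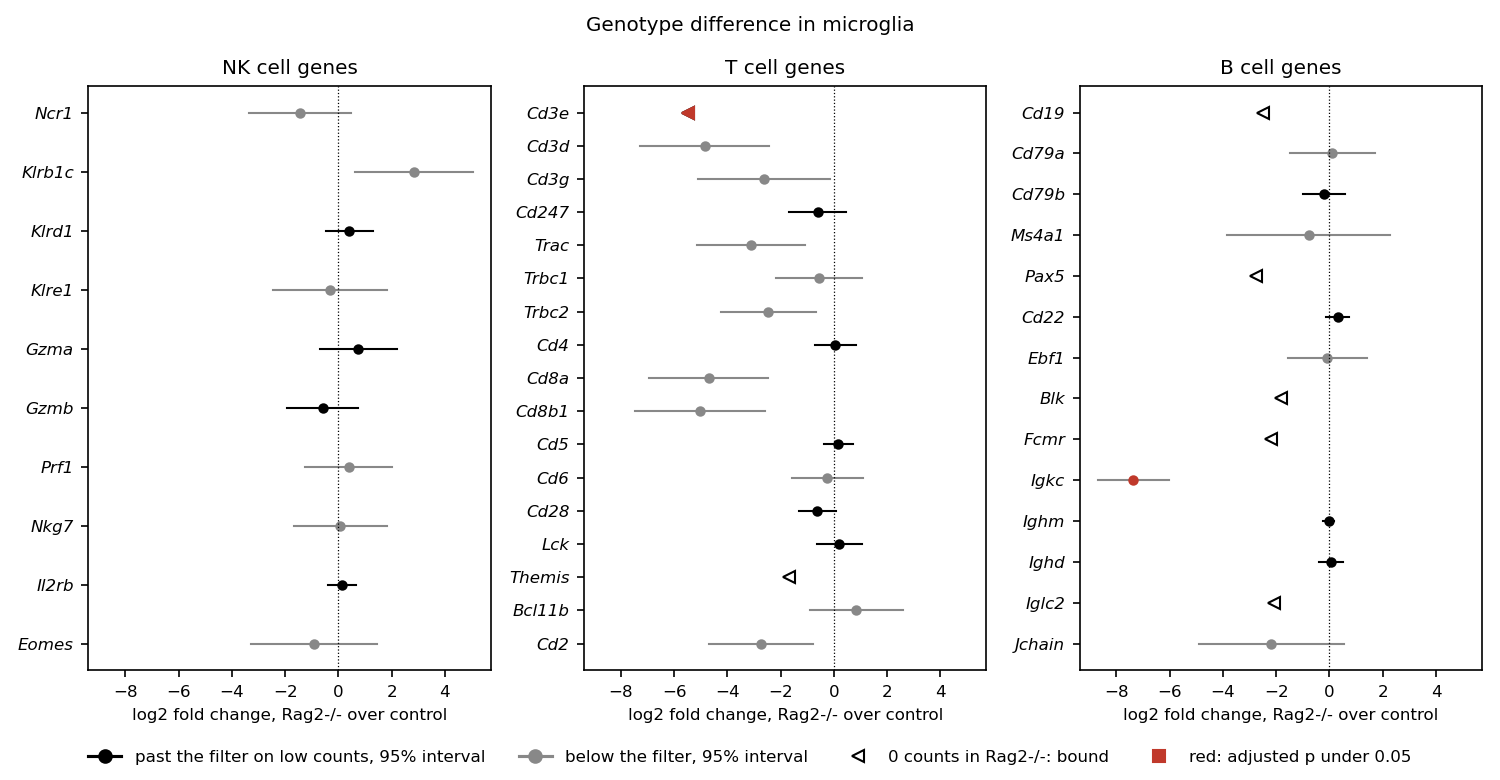
Log2 fold change of Rag2-/- over control microglia for the 10 NK cell genes, 17 T cell genes and 14 B cell genes (edgeR); lines are 95% intervals, grey marks genes below the filter on low counts, triangles are bounds for genes with 0 counts in every Rag2-/- library, and red marks an adjusted p under 0.05. Trat1, with 2 counts in all, is left out. Intervals of 9 of the 10 NK cell genes include 0, and Cd3e and Igkc are the called genes of the other lists.

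Of 30 other NK cell genes, 28 had counts in microglia and 0 were called by genotype (edgeR). At an unadjusted p under 0.05, 0 were higher and 4 lower, where 4.56% of all genes with a count passed in either direction. The list had a median log2 fold change of -0.36. The most abundant was Ccl5, a chemokine also made by T cells, at 577 to 1335 counts in controls and 634 to 1121 in Rag2-/- microglia (log2 fold change -0.06, unadjusted p = 0.770). Il12rb2, a chain of the interleukin-12 receptor, and Il18rap, a chain of the interleukin-18 receptor, had log2 fold changes of 0.09 and -0.06 (unadjusted p = 0.647 and 0.879). The kinase gene Txk and the inhibitory receptor gene Klrb1b had -0.57 and -0.54 (unadjusted p = 0.0620 and 0.210). The 4 genes with an unadjusted p under 0.05, named after their values were seen, were Klrg1, Gzmk, Ifng and Fasl. Activated T cells also transcribe these 4, and not all of the 10 NK cell genes are restricted to NK cells either. Which cells held the counts was not tested, for them or for the 10 NK cell genes. Klrg1, Gzmk and Ifng had 10, 24 and 6 counts over the controls and 0 over the Rag2-/- libraries, and Fasl had 2 to 46 counts per control and 0 to 9 per Rag2-/- library. Other gene models cover 40% of the exonic bases of Il12rb2 (Serbp1, opposite strand), 26.9% of Klrb1b (Gm44511, same strand) and 25.9% of Ifng (Gm49751, same strand), so part of their counts is uncertain.

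The interleukin-15 pathway, which NK cells need to survive, had counts in microglia libraries of both genotypes. By genotype, 0 of its 7 listed genes had an unadjusted p under 0.05, where 2.91% of all genes past the filter did. Il15, the cytokine, named here after its values were seen, had 71 to 206 counts in controls and 92 to 166 in Rag2-/- microglia (log2 fold change -0.27, unadjusted p = 0.229). Il2rg, the common γ chain, had 116 to 269 counts and 124 to 198 (log2 fold change -0.13, unadjusted p = 0.447), and the kinase gene Jak3 had 0.11 (unadjusted p = 0.521). Stat5a and Stat5b, the transcription factors of the pathway, had log2 fold changes of -0.03 and -0.14.

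Ligands of NK cell receptors also had 0 of 12 at an unadjusted p under 0.05, where 4.56% of all genes with a count passed. These 12 had a median log2 fold change of 0.02. H2-K1 and H2-D1, the class I molecules read by the Ly49 receptors, share sequence with other class I genes and had log2 fold changes of -0.09 and 0.01 at 5839 to 14135 and 2995 to 10451 counts in controls. H2-T23, which encodes the Qa-1 molecule read by CD94 with NKG2A, had -0.03, Pvr, a ligand of CD226, had 0.16, and Clec2d, a ligand of the NKR-P1 receptors, had 0.12. Of the list of 9 other innate lymphoid genes 0 were called. At an unadjusted p under 0.05 (edgeR), 2 genes of this list were higher and 0 lower. Its member Cxcr6, a chemokine receptor, named after its values were seen, had 2 to 14 counts in controls and 10 to 47 in Rag2-/- microglia (log2 fold change 1.13, edgeR unadjusted p = 0.0405, adjusted p = 0.999).

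The NK cell genes were concentrated in the microglia libraries. Summed over the 10 genes, the 12 microglia libraries held 1875 counts and the 31 other libraries 43, a CPM 125-fold higher (exact binomial 95% interval 92.8 to 174). Nkg7, Gzma, Gzmb and Ncr1 had 0 counts in all 31 other libraries, and their levels in microglia were at least 91.1-fold, 144-fold, 203-fold and 47.0-fold higher (floor of 3 counts over the 31 libraries). Il2rb had 1046 counts in microglia and 22 in the other libraries, a 137-fold difference in CPM (95% interval 89.9 to 219). Eomes showed the smallest ratio, 13.3-fold (95% interval 6.10 to 33.1), with 37 counts against 8. These intervals and floors cover counting error only, and amplified reads without molecular identifiers are not independent molecules.

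All 10 genes were called higher in microglia than in the mean of the other cell types by edgeR with the mouse as a block (adjusted p 8.55e-10 for Il2rb to 0.00461 for Eomes), where 36.9% of all genes past the filter and 22.6% without the filter were called higher. Because counts outside microglia were at or near 0, the 5 genes past the filter (Nkg7, Gzma, Gzmb, Il2rb and Klrd1) passed it through microglia, so this count describes the same difference as the counts above and adds no support to it. Each cell type had a lane of its own, so differences between lanes cannot be told apart from those between cell types. A test of whether the genotype difference in microglia differed from that in the other cell types carried no information on these genes, because their counts elsewhere were at or near 0.

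**Figure D4:**
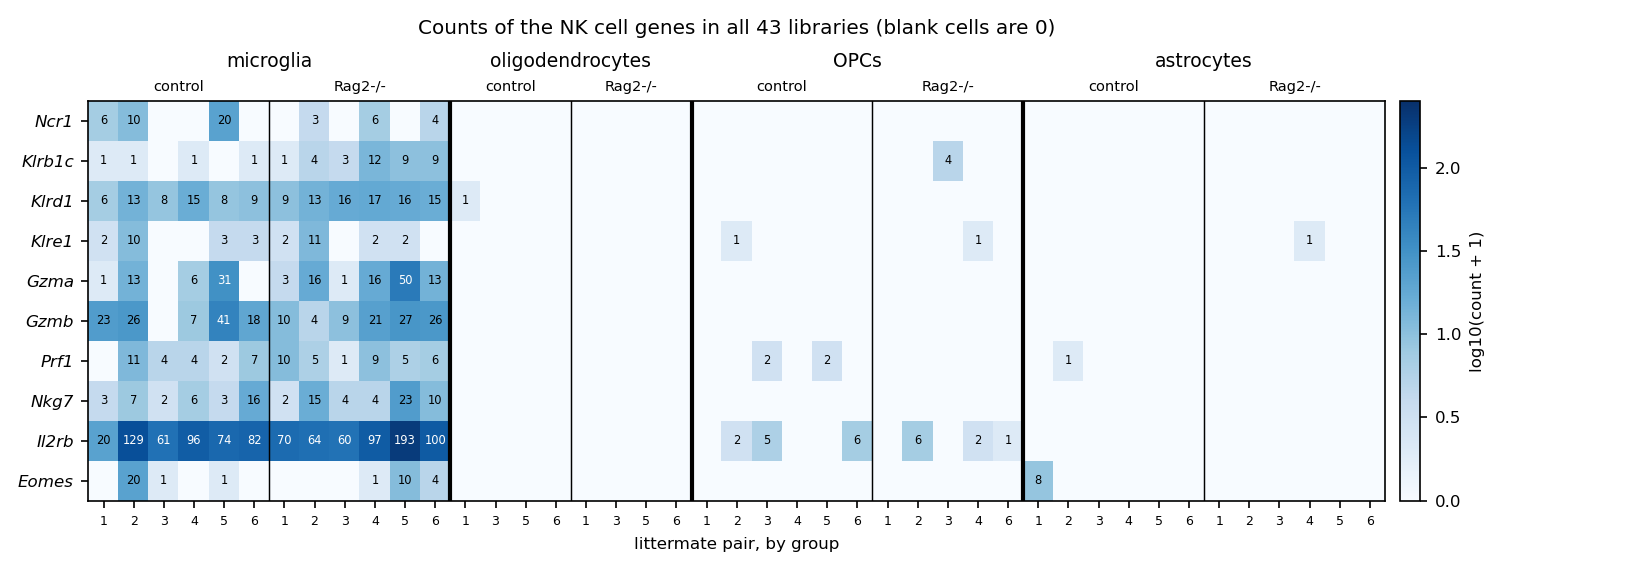
Counts of each NK cell gene (rows) in each of the 43 libraries (columns, numbered by littermate pair within cell type and genotype), with the count printed in each cell above 0 and colour on a log10 scale. Each of the 12 microglia columns holds counts for 5 to 10 of the genes, and counts elsewhere are scattered and reach at most 8, for Eomes in 1 astrocyte library.

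In OPCs, Il2rb was the most frequent member, with 2, 5 and 6 counts in the controls of pairs 2, 3 and 6 and 6, 2 and 1 counts in the Rag2-/- mice of pairs 2, 4 and 6. It was present in 6 of 11 OPC libraries, in both genotypes, and the level in microglia was 53.6-fold higher (95% interval 35.2 to 85.8). The same OPC libraries held 243 to 1070 CPM of the microglia genes, against 8710 to 10800 CPM in microglia, and the part of microglial RNA in the OPC counts was not tested. The other OPC counts were 2 and 2 of Prf1 in the controls of pairs 3 and 5, 1 and 1 of Klre1 in the control of pair 2 and the Rag2-/- mouse of pair 4, and 4 of Klrb1c in the Rag2-/- mouse of pair 3.

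In astrocytes there were 10 counts over 12 libraries, of which 8 were Eomes in the control of pair 1, a library without counts of any other NK cell gene. In oligodendrocytes there was 1 count, of Klrd1, over 8 libraries. By genotype, 0 of the 4 members that could be fitted in OPCs were called in edgeR, 0 of 3 in astrocytes and 0 of 1 in oligodendrocytes, where the test called 0.266%, 0.0892% and 0.0477% of all genes with a count. None of them had an unadjusted p under 0.05, and 5.9%, 4.98% and 4.79% of all genes with a count did. A genotype difference was not detectable at this depth.

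Between the sexes, all 10 log2 fold changes of male over female microglia were below 0, with a median of -1.08, beside 0.01 over all genes with a count. None passed the adjusted threshold (edgeR quasi-likelihood test with genotype as a term, 0 of 10 called, and 0 of the 7 that DESeq2 could adjust), where 0.0467% of genes past the filter and 0.076% without the filter were called. At an unadjusted p under 0.05 there were 3 of 10, against 3.92% and 5.16% of all genes. The sum of the 10 genes was 22.7 ± 5.86 CPM in females (SD, n = 5) and 11.1 ± 3.59 CPM in males (SD, n = 7), with ranges of 14.5 to 29.1 and 7.07 to 17.9 CPM.

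Gzma had 13, 31, 16, 50 and 13 counts in the 5 females and 0 to 16 in the 7 males, with a median of 1. All females stood above 6 of the 7 males, and the Rag2-/- male of pair 4, at 1.55 CPM, stood above the lowest female, at 1.38 CPM. The log2 fold change was -2.73 (SE 0.69, unadjusted p = 0.000703, adjusted p = 0.656), and without the filter on low counts the same test gave an adjusted p of 0.0157. The difference had the same direction in control libraries alone (-3.78) and in Rag2-/- libraries alone (-1.92).

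Eomes had 20, 1, 0, 10 and 4 counts in females and 0 or 1 in males (log2 fold change -4.25, unadjusted p = 0.000312, adjusted p = 0.213). Without the control of pair 2 the unadjusted p was 0.0703. Il2rb had 64 to 193 counts in females and 20 to 97 in males, 11.6 ± 3.95 CPM (SD, n = 5) against 6.66 ± 2.28 CPM (SD, n = 7), with a log2 fold change of -0.79 (unadjusted p = 0.00544, adjusted p = 1.00, and unadjusted p = 0.0510 without the control of pair 2). Nkg7, with 3 to 23 counts in females and 2 to 16 in males, had a log2 fold change of -1.21 (95% interval -2.81 to 0.39), and Klrd1, with 8 to 16 and 6 to 17 counts, had -0.24 (95% interval -1.13 to 0.65).

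Fitted values of other lists between the sexes, of which 0 genes had an adjusted p under 0.05, stand here beside those of the NK cell genes. The values were lower in males for 10 of 10 monocyte and border macrophage genes (summed level 553 to 863 CPM in females and 433 to 973 in males), 8 of 10 neutrophil genes (340 to 496 and 320 to 423 CPM) and 5 of 5 red blood cell genes (18.8 to 417 and 11.1 to 122 CPM). Csf3r held most of the neutrophil sum in both sexes, at a mean of 377 CPM in females and 353 CPM in males. Of the other NK cell genes 19 of 28 were lower in males and of the T cell genes 13 of 18, but of the B cell genes 6 of 14, with a median log2 fold change of 0.12, and of the other innate lymphoid genes 5 of 9. Among lists of brain cells, 5 of 6 OPC genes and 5 of 6 neuron genes were lower in males too. The same held for only 4 of 9 microglia, 4 of 7 astrocyte, 4 of 7 oligodendrocyte and 1 of 6 endothelial genes. Of the interleukin-15 pathway 2 of 7 genes were lower in males, and of the NK cell receptor ligands 6 of 12. The part of these lists in the sex difference was not tested. The 5 females came from 3 littermate pairs, and in 2 of these both sampled mice were female, so sex and litter overlap.

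**Figure D5:**
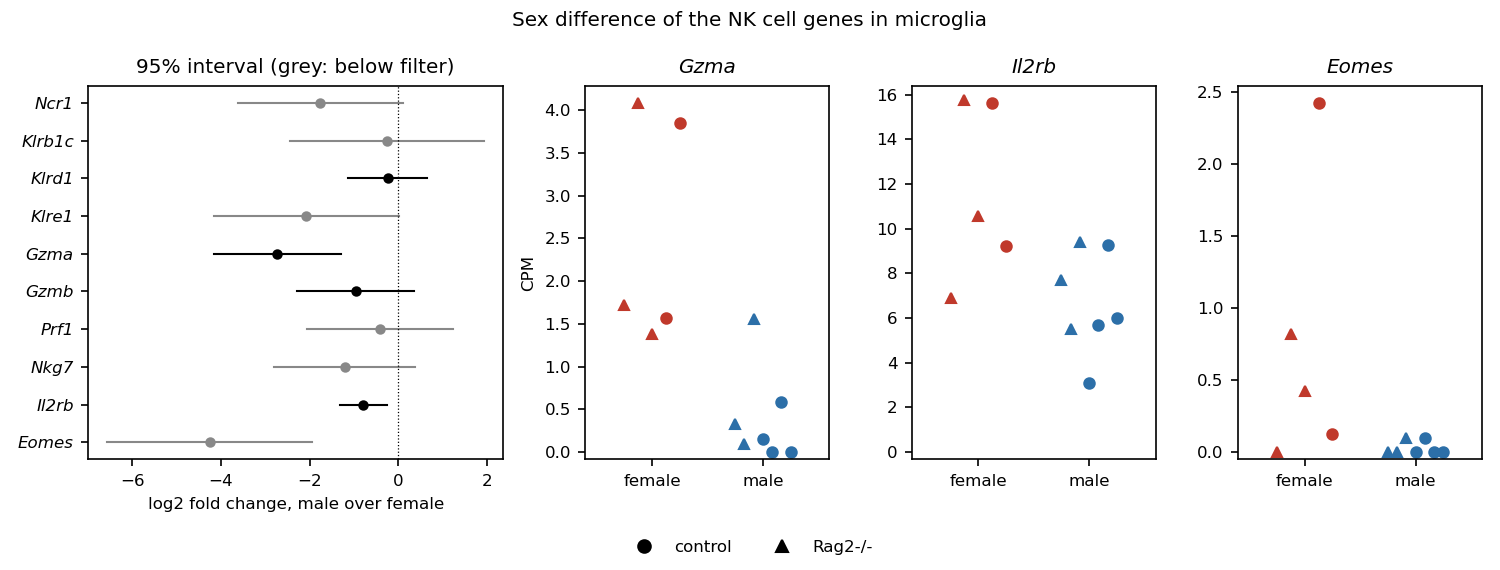
Left, log2 fold change of male over female microglia with its 95% interval for each NK cell gene (edgeR, grey below the filter on low counts); right, CPM of Gzma, Il2rb and Eomes in the 5 female and 7 male libraries, circles for control and triangles for Rag2-/- mice. All 10 values lie below 0, and the intervals of Gzma, Il2rb and Eomes exclude it.

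The genes whose CPM followed the summed NK cell gene level most closely over the 12 microglia libraries were Rad54l2 and Tlr6 (Spearman correlation 0.916 each), Cenpb (0.902), Ap1ar (0.895), AW146154 and Gpx3 (0.881 each) and H4c12 and Magee1 (0.874 each). They were the 8 highest of 13368 protein-coding genes ranked, and the values are a description over libraries of 1 plating and amplification protocol that differ in depth. Against the sum without Il2rb the same 8 correlations were 0.664 (Magee1) to 0.874 (Tlr6). None of the 8 is on any of the NK cell lists.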

How the data were processed

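Per the labels and the paper's methods, RNA from immunopanned cells was amplified, libraries of 1 cell type were sequenced together on 1 lane, and read pairs were aligned with STAR 2.7.8a to GRCm39 and counted on Ensembl genes with HTSeq. The authors deposited whole-number counts per gene, not normalized. The counting mode and strand setting are not given in the sources used here. Pairs counted on no gene, in 5 summary entries per library, were 33.5% to 52.0% of a library and were left out.

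Gene models came from GENCODE M39 (GRCm39), which held 54749 of 55416 identifiers, and promoters from RefSeq on GRCm38.p6. CPM was taken over all gene counts. Each cell type was fitted in edgeR 4.0.16 (R 4.3.3) with TMM scaling, filterByExpr (minimum count 10, minimum total 15), sex and genotype, and genes below the filter were taken from the fit of all genes with at least 1 count. An adjusted p under 0.05 was a call. Cell types were compared in 1 fit with the mouse as a block. DESeq2 1.42.0 and limma 3.58.1 (voom) were alternatives, beside DESeq2's size factors, other filters, robust fitting, no sex term, the littermate pair as a block, Rag2+/- controls alone, no pair 6, each library left out, and for sums TMM scaling, medians and leaving out mitochondrial counts. Tests in edgeR were tested on simulated data with 200 changed genes. Single genes were also tested with exact permutation tests over all arrangements of the libraries, and the exact binomial intervals came from scipy 1.17.1.

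Each library was treated as 1 mouse. Libraries of a group differed by a chi-square of at least 5.53 per gene, where counting error gives about 1, so none was a copy of another. Littermate numbers are shared by a control and a Rag2-/- mouse of 1 litter. In microglia, deviations of littermates from their group means correlated by 0.0865 on average, against -0.0176 for different litters. Fold changes against 0 counts use a floor of 3 counts over the group. The 10 genes and the 15 other lists were chosen with earlier results of these data known, and 166 of 167 list entries were in the annotation. Genes named are all members, up to 8 of the other NK cell genes and up to 5 of each other list by total count in microglia, genes of the lists called by genotype, Rag2 and Iftap, and the 8 protein-coding genes closest to the summed level (at least 1 count in 6 libraries and 50 counts in all). Others are given as named after their values were seen. For 1 gene of these lists the result is not reported here.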

Additional observations from a re-analysis of the deposited data

Results flagged for a closer look

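In 13 of 37 groups with a count, 1 library stood apart from the others of its group, where chance flags about 1 in 20 groups. In 9 of the 13 a single library held the only counts, a case that this criterion always marks, so the chance rate does not apply to those.

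In microglia, Eomes was at 2.42 CPM (20 counts) in the control of pair 2 and at most 0.124 CPM in the other controls. Klre1 was at 1.21 CPM (10 counts) in that library and at most 0.373 CPM in the other controls, and at 1.18 CPM (11 counts) in its Rag2-/- littermate and at most 0.220 CPM in the other Rag2-/- mice.

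In OPCs, Klrb1c was at 0.285 CPM (4 counts) in the Rag2-/- mouse of pair 3, and Klre1 at 0.133 CPM in the control of pair 2 and 0.0962 CPM in the Rag2-/- mouse of pair 4, each from 1 count. In astrocytes, Eomes was at 0.882 CPM (8 counts) in the control of pair 1, which was also the summed level of the NK cell genes there, against at most 0.153 CPM in the other controls. Prf1 was at 0.153 CPM in the astrocyte control of pair 2 and Klre1 at 0.107 CPM in the astrocytes of the Rag2-/- mouse of pair 4, the latter being also the summed level. In oligodendrocytes, Klrd1 and the summed level were at 0.0791 CPM, from 1 count in the control of pair 1.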

How the results depend on the processing

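No alternative called a member by genotype in any cell type, over 23 settings in microglia, 15 in oligodendrocytes, 19 in OPCs and 21 in astrocytes, the littermate pair as a replicate block included (0 members called with and without the sex term). Over all genes in microglia, edgeR called 1 past the filter and 9 without it, and DESeq2 3. In microglia 218 of 228 single values kept their direction and none passed an adjusted p of 0.05. The exceptions were Klre1 at 0.0842 with the replicate block and the sex term and 0.18 without pair 6, Eomes at 0.59 with the replicate block and no sex term, and values without 1 library, over which Nkg7 ranged from -0.35 to 0.49, Eomes from -1.52 to 0.87 and Klre1 from -1.14 to 0.15 (log2). Without 1 library the values that kept their direction ranged from -3.05 to -0.43 for Ncr1, 0.02 to 1.32 for Gzma, -0.85 to -0.067 for Gzmb, 0.02 to 1.071 for Prf1, 0.05 to 0.32 for Il2rb, 0.31 to 0.54 for Klrd1 and 2.20 to 3.12 for Klrb1c, so the sizes for Gzma, Gzmb, Prf1 and Ncr1 rested on single libraries. The exact permutation test of Klrb1c CPM (difference 0.54 CPM) is unadjusted.

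For sex, 0 members were called in 17 of 18 settings, and 1, Gzma (log2 fold change -2.75), without the filter on low counts. Klrb1c (0.38) and Nkg7 (0.0745) turned above 0 in control libraries alone and Prf1 (0.33) in Rag2-/- libraries alone. Without 1 library, Klrb1c ranged from -0.91 to 0.074 and Prf1 from -0.75 to 0.35. The alternatives for sex other than the filter and the genotype term were chosen after seeing the data. Members called higher in microglia were 7 to 10 of 10. The cause of these changes was not tested. Most members had under 20 counts per microglia library, which leaves intervals of several log2 units and limits what could be detected.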
